A study of Mus musculus with 6 samples.

Results

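The cytochrome P450 (Cyp) genes were examined in small intestinal organoids treated with MMK-1. Members were the protein-coding rows of the deposited expression table whose symbol was Cyp followed by a number, a subfamily letter and a gene number. The rule found 76 genes in 32 subfamilies, of 21397 genes in the table, 16428 of them protein-coding. Organoids were grown from crypts of Fpr2f/f mice, which carry loxP-flanked Fpr2 alleles in both groups, and no Cre driver is named for these libraries. The MMK-1 group received this synthetic peptide agonist of FPR2 at 1 μmol/L, and the control group received the vehicle, 0.1% DMSO, both for 5 days. For MMK-1 samples, the label of the treatment gives 1 mmol/L, against 1 μmol/L in their protocol text and in the study's methods. RNA-seq gave 3 libraries per group, each of organoids that the study pooled from several mice. The ages of the mice are not given in the labels.

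P450 enzymes are heme-containing monooxygenases that insert 1 atom of molecular oxygen into their substrates with electrons delivered by P450 oxidoreductase or, in mitochondria, by ferredoxin. Families 1 to 3 mainly oxidize drugs, plant compounds and other xenobiotics, family 4 hydroxylates fatty acids and eicosanoids, and the higher-numbered families act on sterols, bile acids, steroid hormones, vitamin D and retinoic acid. In the small intestine P450 enzymes are most abundant in villus enterocytes, where they contribute to the first-pass metabolism of swallowed drugs.

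Library depth was 35512739 to 37537463 fragments, and MMK-1 replicate 3 stood apart from the other two MMK-1 libraries along the second principal component (4.48% of the variance, against 92.4% for the first, which separated the groups). Expression was measured in FPKM, fragments per kilobase of gene, scaled to library size. Of the 76 genes, 31 in 16 subfamilies reached a mean of 1 FPKM and were tested together with all 10551 such genes by limma on log2(FPKM + 1). The filter used the mean over all 6 libraries, and Cyp1a1, Cyp2c23, Cyp2d34, Cyp11a1 and Cyp27a1 were under 1 FPKM in 1 group and passed through the other. Adding 1 shrinks the fold change of genes with a few FPKM, so plain ratios of mean FPKM are given as well. All 6 epithelial markers were expressed in every library, and they did not move together. By adjusted p, Vil1 (-1.21), Krt19 (-0.78) and Krt8 (-0.30) were lower, Krt18 (0.44) and Cdh1 (0.17) were higher, and Epcam passed in neither direction (adjusted p = 0.934). Their summed level was 3279 to 3311 FPKM with vehicle and 2313 to 2496 FPKM with MMK-1. Of 8 mesenchymal markers, 6, Col1a1 and Des among them, were under 0.1 FPKM in all libraries. The other two were Vim, with 4.83, 5.04 and 4.61 FPKM with vehicle and 3.78, 3.28 and 4.77 FPKM with MMK-1 (adjusted p = 0.0491), and Pdgfrb, which was under the filter, with 1.15, 1.07 and 1.06 FPKM with vehicle and 0.235, 0.251 and 0.308 FPKM with MMK-1, without overlap. The labels do not state whether the libraries came from separate cultures, so p-values measure the spread between these samples.

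MMK-1-treated organoids held less P450 mRNA. Of the 31 genes tested, 13 were called lower (41.9%), against 3.65% of all genes tested, and 0 were called higher, against 3.39%. A call took a 2-fold or larger change of FPKM + 1 and p no higher than 0.05. The count called higher depends on the added 1. Adding 0.1 in its place gave 15 called lower (48.4%, against 4.61% of all genes) and 3 higher (9.68%, against 6.41%). With p adjusted over all genes tested (Benjamini-Hochberg, threshold 0.05), 24 were lower (77.4%, against 24.7% of all genes) and 5 were higher (16.1%, against 48.5%). The same counts, 24 and 5, were found for genes whose groups did not overlap, against 26.3% and 50.5% of all genes. Cyp2s1 and Cyp2c37 passed in neither direction, and Cyp2d22 passed narrowly. Without the 5 genes that reached the filter through 1 group, 10 of 26 genes were called lower (38.5%, against 3.17% of all genes that held 1 FPKM in each group) and 0 higher (against 2.9%), and 20 were lower (76.9%, against 24.3%) and 4 higher (15.4%, against 48.1%) by adjusted p. The median log2 fold change was -0.91 for the P450 genes and 0.13 for all genes tested. When libraries were scaled by the median ratio over all genes, the median of all genes was 0.01, that of the P450 genes was -1.06, and 25 P450 genes were lower and 4 higher by adjusted p. With that scaling 3828 of all genes were lower and 3792 higher, against 2606 and 5118 without it. Without MMK-1 replicate 3, 13 genes were called lower and 0 higher (against 3.79% and 4.05% of all genes), and 24 were lower and 5 higher by adjusted p (against 28.2% and 48.9%). Leaving out any other library gave 23 lower and 5 higher, against 22.2% to 22.8% and 44.8% to 46.4% of all genes. Expression is bulk, so fewer cells of a type and less RNA per cell cannot be told apart.

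**Figure D1:**
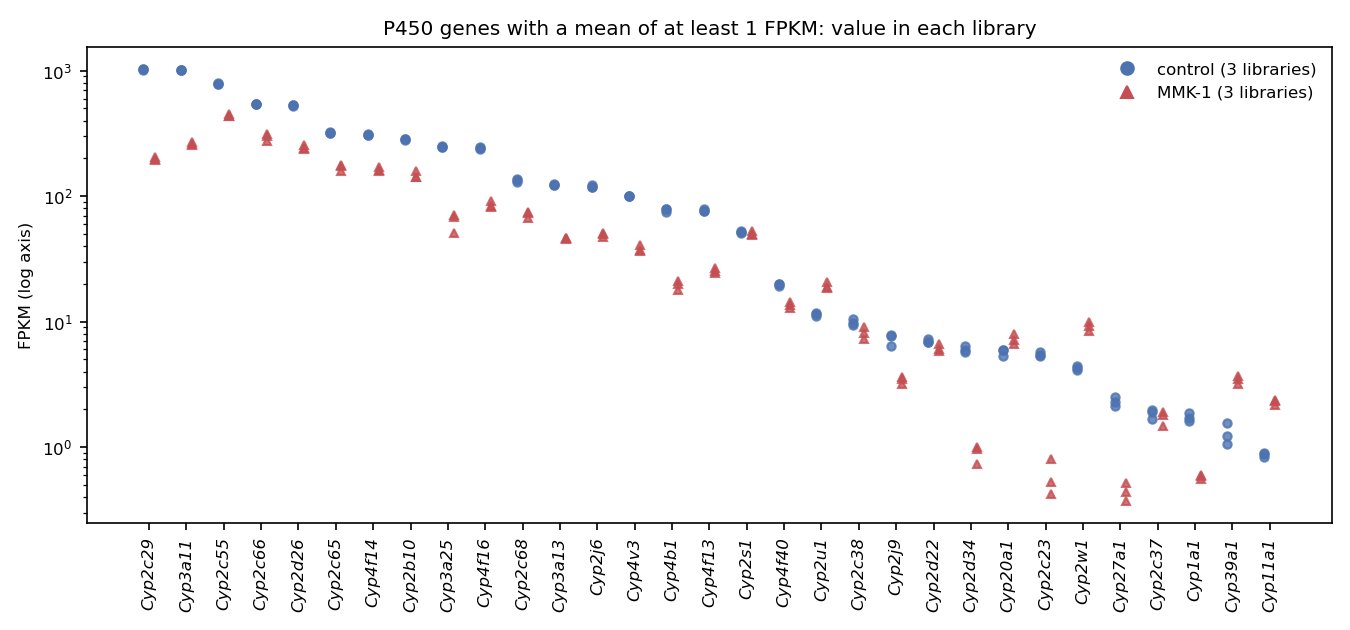
FPKM (log axis) of each of the 31 tested P450 genes in the 3 control libraries (circles) and the 3 MMK-1 libraries (triangles), ordered by control mean. Groups overlap for Cyp2s1 and Cyp2c37, and the 5 genes with higher MMK-1 values lie in the right part of the plot, among the less abundant genes.

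The summed FPKM of all 76 genes was 6102, 6056 and 6086 with vehicle and 2446, 2464 and 2458 with MMK-1, 2.48-fold lower (6081 ± 23.2 against 2456 ± 9.29, SD, n = 3). Their fragments made up 1.40% to 1.41% of control libraries and 0.573% to 0.583% of MMK-1 libraries. The 10 most abundant genes by mean FPKM held 87.2% to 87.3% of the summed FPKM with vehicle and 84.1% to 84.7% with MMK-1. The Cyp2c subfamily held the largest share in both groups, 46.6% of the control sum and 48.5% of the MMK-1 sum. The Cyp3a subfamily held 22.7% to 22.8% with vehicle and 14.4% to 15.7% with MMK-1, and its summed FPKM was 3.72-fold lower. The share of Cyp4f was 10.7% and 11.8%, that of Cyp2d 8.94% and 10.3%, and that of Cyp2s1 0.850% and 2.06%. These shares set FPKM, which is per length, side by side and depend on the gene lengths of the authors. The length implied by the FPKM steps and the summed exons of GENCODE differed by over 1.5 times for 11 of the 31 tested genes. The implied length was 9557 bases against 3605 for Cyp2j6, 4206 against 1517 for Cyp2w1, 2053 against 5093 for Cyp3a11 and 1774 against 3061 for Cyp2c29. Levels of different genes, and the shares and order built on them, could therefore be off by as much. A plain ratio of FPKM within 1 gene does not depend on its length. The 1 FPKM filter, the log2 fold change of FPKM + 1 and the calls do, most for genes with a few FPKM such as Cyp2w1.

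**Figure D2:**
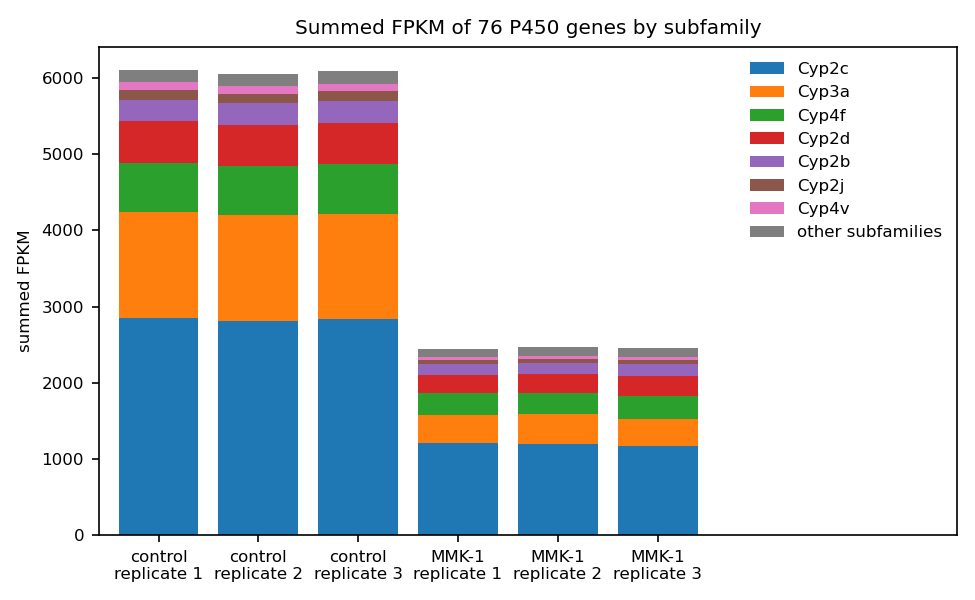
Summed FPKM of the 76 P450 genes in each library, stacked by subfamily, with the 7 most abundant subfamilies in color and the others in grey. The 3 MMK-1 bars reach 2446 to 2464, the 3 control bars 6056 to 6102.

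Family 3 enzymes oxidize many drugs and steroids, and all 3 genes tested were called lower, beside 3.65% of all genes tested. Cyp3a11 (NCBI gene 13112), the mouse counterpart of the main human drug-oxidizing P450 CYP3A4, lies on chromosome 5 of GRCm38 from 145854426 to 145879964. It had 1019, 1010.0 and 1011 FPKM with vehicle and 263, 271 and 256 FPKM with MMK-1. The MMK-1 mean was 3.85-fold lower, and the log2 fold change was -1.94 ± 0.0370 (SE, adjusted p = 2.47e-09). Cyp3a25, its neighbor in the same cluster, had 250.5, 248 and 245 FPKM with vehicle and 67.9, 70.1 and 51.3 FPKM with MMK-1, a log2 fold change of -1.97 ± 0.103 (SE, adjusted p = 5.25e-07). The lowest Cyp3a25 value was that of MMK-1 replicate 3, and with each library left out in turn the log2 fold change lay between -2.05 and -1.83. Cyp3a13, which lies outside that cluster, had 123, 124 and 123 FPKM with vehicle and 45.2, 46.04 and 46.03 FPKM with MMK-1, a log2 fold change of -1.41 ± 0.0351 (SE, adjusted p = 8.62e-09). In none of the 3 genes did the groups overlap.

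The Cyp2c subfamily, whose enzymes oxidize xenobiotics and arachidonic acid, had 8 genes tested, of which 7 were lower by adjusted p and 2 were called lower. Of all genes tested, 24.7% were lower by adjusted p and 3.65% were called lower. Cyp2c29 (NCBI gene 13095; chromosome 19, 39269405 to 39330713) had, with Cyp3a11, the highest deposited FPKM of the control libraries, at 1023, 1008 and 1039 FPKM, and had 193, 198 and 203 FPKM with MMK-1. It was 5.16-fold lower by mean FPKM and had the largest fall among the tested P450 genes on the log2(FPKM + 1) scale, -2.36 ± 0.0374 (SE, adjusted p = 1.18e-09). Cyp2c23, an arachidonic acid epoxygenase, was at a few FPKM, fell further by plain ratio and reached the filter through the control group. Its values were 5.42, 5.28 and 5.72 FPKM with vehicle and 0.531, 0.425 and 0.810 FPKM with MMK-1, 9.29-fold lower, with a log2 fold change of -2.03 ± 0.0886 (SE, adjusted p = 1.84e-07). Cyp2c55, which hydroxylates arachidonic acid, had 801, 788 and 784 FPKM with vehicle and 438, 439 and 450.3 FPKM with MMK-1. Its log2 fold change was -0.84 ± 0.0351 (SE, adjusted p = 1.49e-07), and it had the highest P450 FPKM of the MMK-1 libraries as deposited. Cyp2c66 had 544, 545 and 541 FPKM with vehicle and 311, 300.1 and 276 FPKM with MMK-1, a log2 fold change of -0.88 ± 0.0484 (SE, adjusted p = 7.30e-07). Cyp2c65 had 320.1, 324 and 317 FPKM with vehicle and 175, 176 and 158 FPKM with MMK-1, a log2 fold change of -0.91 ± 0.0485 (SE, adjusted p = 5.77e-07). Cyp2c68 fell by a similar amount, -0.89, and the values of Cyp2c65, Cyp2c66 and Cyp2c68 were all lowest in MMK-1 replicate 3. Cyp2c38 had a smaller log2 fold change, -0.25 ± 0.0730 (SE, adjusted p = 0.0117). Cyp2c37 had 1.89, 1.67 and 1.98 FPKM with vehicle and 1.91, 1.48 and 1.79 FPKM with MMK-1, and its groups overlapped (-0.06 ± 0.0779 (SE, adjusted p = 0.486)).

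The sequences before the transcription start are shown for neighboring genes of 1 subfamily that fell alike (Cyp3a11 with Cyp3a25, Cyp2c65 with Cyp2c66), for a pair that fell unequally (Cyp2c29 with Cyp2c55), and for Cyp2b10 and Cyp2s1, neighbors on chromosome 7 of which the first was lower and the second was not without further scaling. Each is the 120 bases upstream of a RefSeq start (GRCm38.p6), read 5′ to 3′ on the strand of the gene, and capitals mark the letters of a receptor core, 2 half-sites and a core promoter element that are spelled out after the sequences, on either strand. They span chr5:145879855-145879974 and chr5:146009618-146009737 on the minus strand, chr19:39060886-39061005, chr19:39113778-39113897, chr19:39286965-39287084, chr19:39006899-39007018 and chr7:25897538-25897657 on the plus strand, and chr7:25816526-25816645 on the minus strand.
Cyp3a11: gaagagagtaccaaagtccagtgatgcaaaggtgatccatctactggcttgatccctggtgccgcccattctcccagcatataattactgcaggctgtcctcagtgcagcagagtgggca
Cyp3a25: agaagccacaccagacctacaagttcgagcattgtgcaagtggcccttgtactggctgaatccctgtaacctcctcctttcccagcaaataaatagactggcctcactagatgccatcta
Cyp2c65: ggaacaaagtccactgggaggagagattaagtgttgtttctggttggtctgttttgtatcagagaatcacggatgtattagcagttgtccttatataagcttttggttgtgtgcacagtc
Cyp2c66: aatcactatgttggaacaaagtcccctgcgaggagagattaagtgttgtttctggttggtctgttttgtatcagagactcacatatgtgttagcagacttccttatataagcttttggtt
Cyp2c29: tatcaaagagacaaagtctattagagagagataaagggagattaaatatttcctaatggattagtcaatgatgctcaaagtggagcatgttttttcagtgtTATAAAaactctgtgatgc
Cyp2c55: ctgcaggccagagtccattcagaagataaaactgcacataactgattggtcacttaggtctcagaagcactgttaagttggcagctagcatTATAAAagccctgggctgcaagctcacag
Cyp2b10: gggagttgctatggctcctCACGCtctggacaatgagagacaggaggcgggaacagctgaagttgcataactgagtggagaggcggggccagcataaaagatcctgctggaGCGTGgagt
Cyp2s1: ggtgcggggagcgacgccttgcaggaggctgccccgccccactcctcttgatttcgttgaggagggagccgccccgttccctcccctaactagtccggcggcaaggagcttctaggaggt

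Globally aligned, these 120 bases were identical at 75% of aligned positions between Cyp2c65 and Cyp2c66, at 60.8% between Cyp3a11 and Cyp3a25, and at 50.8% between Cyp2c29 and Cyp2c55. Cyp2c29 and Cyp2c38 shared 65.9%, with log2 fold changes of -2.36 and -0.25. Among the 26 tested P450 genes with a promoter entry, 31 pairs of 1 subfamily had 42.5% to 75% identity (median 50.8%) and 294 pairs of different subfamilies had 35.7% to 54.7% (median 46.1%). Genes of a subfamily share ancestry, and these values are a description. The RefSeq start of Cyp2c29 used here lies inside the GENCODE gene, downstream of its first position.

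The 4 short motifs were searched on both strands in the 300 bases from 250 before to 50 after each start, with overlaps allowed, over 32851 promoters of 27025 genes. GCGTG, the core letters bound by the aryl hydrocarbon receptor (AHR), was found in 14 of 63 matched P450 genes and in 35.2% of all genes. AGGTCA, the half-site of many nuclear receptors, was found in 15 of 63, against 18.1% of all genes. GTTAAT, an HNF1 half-site, was found in 7 of 63, against 8.24% of all genes. TATAAA, the core promoter element bound by TBP, was found in 27 of 63, against 15.7% of all genes.

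The other xenobiotic P450 genes of family 2 were Cyp2b10, 3 Cyp2d genes, Cyp2s1 and Cyp2w1, and they moved in different directions. Cyp2b10, the classic target gene of the constitutive androstane receptor (CAR), had 281, 283 and 285 FPKM with vehicle and 143, 141 and 157 FPKM with MMK-1. Its log2 fold change was -0.94 ± 0.0474 (SE, adjusted p = 4.33e-07), and the groups did not overlap. Cyp2d26, of the debrisoquine hydroxylase subfamily, had 534, 527 and 529.7 FPKM with vehicle and 239, 240.3 and 254 FPKM with MMK-1, a log2 fold change of -1.11 ± 0.0386 (SE, adjusted p = 5.53e-08). Cyp2d34 had 5.93, 5.70 and 6.36 FPKM with vehicle and 0.735, 1.00 and 0.970 FPKM with MMK-1, 6.64-fold lower, and it too reached the filter through the control group, with a log2 fold change of -1.88 ± 0.0716 (SE, adjusted p = 8.72e-08). Both were called lower, while Cyp2d22 in the same cluster had a smaller log2 fold change (-0.15 ± 0.0567 (SE, adjusted p = 0.0358)). Cyp2d22 did not pass with 5 of the 6 libraries left out in turn (adjusted p = 0.0640 to 0.125), without the filter (adjusted p = 0.0708) or with the replicate block (adjusted p = 0.0630). Cyp2s1, an epithelial P450 that acts on retinoids and eicosanoids, had 50.5, 52.7 and 51.99 FPKM with vehicle and 49.2, 50.1 and 52.4 FPKM with MMK-1. Its groups overlapped, with a log2 fold change of -0.03 ± 0.0412 (SE, adjusted p = 0.509) and one of -0.18 (adjusted p = 0.0018) after median-ratio scaling. Cyp2w1, a P450 known from fetal gut and colorectal tumors, had 4.44, 4.10 and 4.30 FPKM with vehicle and 8.38, 9.20 and 9.88 FPKM with MMK-1. Its groups did not overlap, and its mean was 2.14-fold higher, a log2 fold change of 0.94 ± 0.0629 (SE, adjusted p = 2.27e-06) on the scale with 1 added.

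The P450 genes of family 2 with arachidonic and long-chain fatty acid substrates split. Cyp2j6 had 124, 119 and 117 FPKM with vehicle and 47.7, 50.04 and 50.7 FPKM with MMK-1, and it was called lower with a log2 fold change of -1.26 ± 0.0420 (SE, adjusted p = 4.39e-08). Cyp2j9 was lower as well (-0.91 ± 0.0761 (SE, adjusted p = 8.93e-06)), from 7.32 ± 0.780 FPKM (SD, n = 3) to 3.43 ± 0.219 FPKM (SD, n = 3). Cyp2u1, which hydroxylates long-chain fatty acids, was higher with MMK-1, with 11.8, 11.5 and 11.1 FPKM with vehicle and 18.5, 18.9 and 20.6 FPKM in treated libraries. Its log2 fold change was 0.71 ± 0.0515 (SE, adjusted p = 3.74e-06), and its groups did not overlap.

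Family 4 enzymes hydroxylate the omega end of fatty acids and eicosanoids, and all 6 tested genes were lower by adjusted p, 4 of them called. The shares of all genes tested were 24.7% lower by adjusted p and 3.65% called lower. Cyp4f14, an omega-hydroxylase of leukotriene B4, had 307, 308 and 314 FPKM with vehicle and 158, 160.3 and 169.7 FPKM with MMK-1, a log2 fold change of -0.93 ± 0.0404 (SE, adjusted p = 1.85e-07). Cyp4f16 had 244, 237 and 248 FPKM with vehicle and 81.95, 83.5 and 90.8 FPKM with MMK-1, a log2 fold change of -1.50 ± 0.0476 (SE, adjusted p = 3.36e-08). Cyp4f13, a further member of this subfamily, had 75.9, 79.2 and 75.9 FPKM with vehicle and 25.3, 24.2 and 26.6 FPKM with MMK-1, a log2 fold change of -1.56 ± 0.0457 (SE, adjusted p = 2.11e-08). The falls thus differed within the subfamily, since Cyp4f40 had a log2 fold change of -0.50 ± 0.0489 (SE, adjusted p = 2.23e-05). Cyp4b1 (NCBI gene 13120; chromosome 4, 115624725 to 115647723), which acts on medium-chain fatty acids and activates some protoxins, had the largest fall of the family. Its values were 75.3, 78.6 and 79.2 FPKM with vehicle and 17.98, 19.8 and 20.98 FPKM with MMK-1, 3.96-fold lower, with a log2 fold change of -1.94 ± 0.0574 (SE, adjusted p = 2.39e-08). Cyp4v3, the mouse counterpart of the fatty acid hydroxylase CYP4V2, had 100.5, 101 and 99.7 FPKM with vehicle and 36.7, 37.3 and 40.9 FPKM with MMK-1, a log2 fold change of -1.37 ± 0.0475 (SE, adjusted p = 5.53e-08). No value of the 6 genes overlapped between the groups.

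The remaining tested genes were low in FPKM, and 3 of the 5 were higher by adjusted p, beside 48.5% of all genes tested. A count among 5 genes is not set apart from that share. Cyp27a1 and Cyp1a1 reached the filter through the control group and Cyp11a1 through the MMK-1 group, so that the direction of these 3 is tied to how they were kept. Cyp27a1 (NCBI gene 104086), the mitochondrial sterol 27-hydroxylase of bile acid synthesis, had 2.49, 2.11 and 2.30 FPKM with vehicle and 0.517, 0.441 and 0.371 FPKM with MMK-1. It was 5.20-fold lower by mean FPKM, and its log2 fold change was -1.19 ± 0.0708 (SE, adjusted p = 1.11e-06). Cyp39a1, an oxysterol 7-alpha-hydroxylase of the same pathway, had 1.05, 1.24 and 1.55 FPKM with vehicle and 3.21, 3.72 and 3.47 FPKM with MMK-1. It was 2.71-fold higher by mean FPKM, the opposite direction, with a log2 fold change of 0.98 ± 0.0871 (SE, adjusted p = 1.30e-05). Cyp11a1, which cleaves the cholesterol side chain in the first step of steroid hormone synthesis, rose from 0.877, 0.832 and 0.895 FPKM to 2.36, 2.17 and 2.31 FPKM. Its mean was 2.63-fold higher, and its log2 fold change was 0.81 ± 0.0572 (SE, adjusted p = 3.13e-06). Cyp1a1, the AHR target that oxidizes aromatic hydrocarbons, fell from 1.86, 1.61 and 1.72 FPKM to 0.586, 0.599 and 0.560 FPKM, 2.97-fold lower, with a log2 fold change of -0.79 ± 0.0625 (SE, adjusted p = 6.46e-06). Cyp20a1, whose substrate is not established, had a log2 fold change of 0.29 ± 0.0687 (SE, adjusted p = 0.00490), and one of 0.16 after median-ratio scaling, which did not pass (adjusted p = 0.0699).

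**Figure D3:**
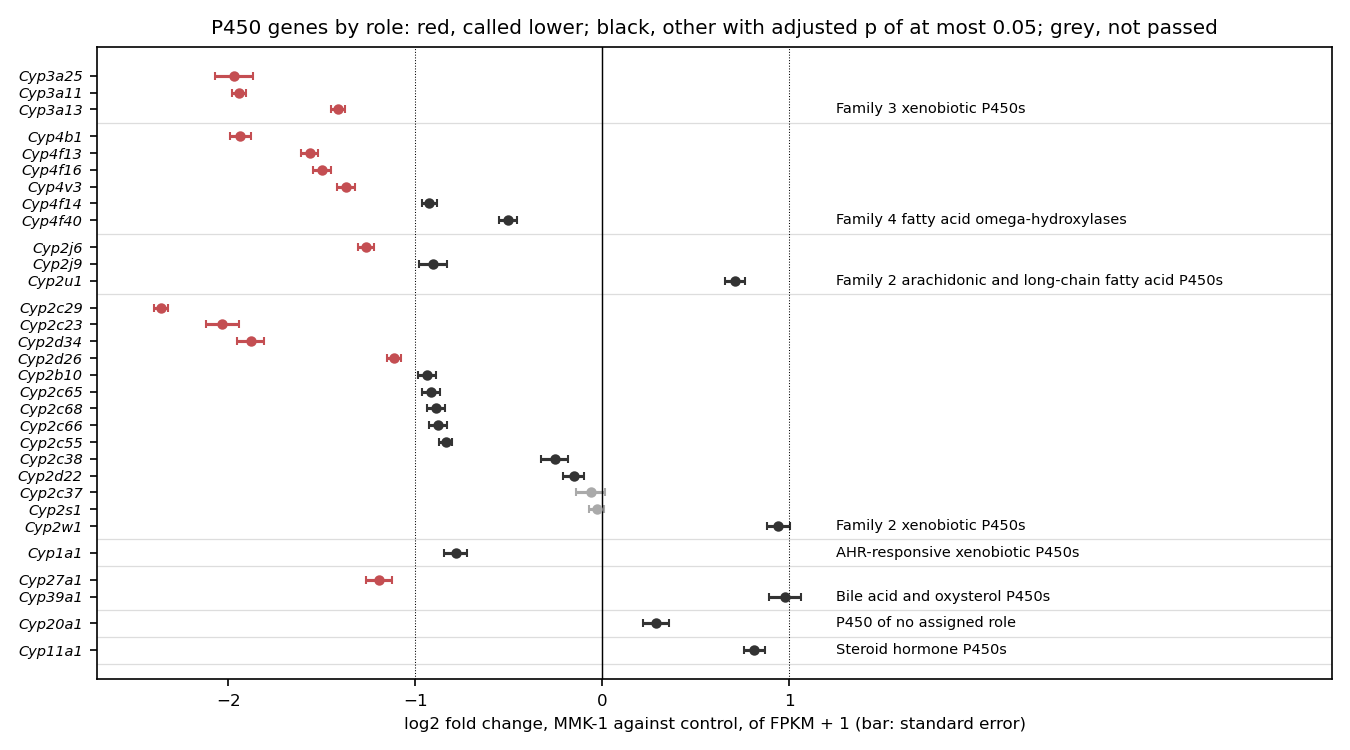
Log2 fold change of FPKM + 1, MMK-1 against control, of the 31 tested P450 genes by role, with bars for the standard error (3 libraries per group) and dotted lines at -1 and 1. Genes called lower are red, other genes with an adjusted p of at most 0.05 black, and Cyp2c37 and Cyp2s1 grey. The 13 called genes lie between -2.36 and -1.11, and no gene lies beyond 1.

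Within a library, the ratio of 2 genes of 1 subfamily does not depend on scaling between libraries, and it was taken for the 2 tested genes with the highest mean FPKM of the 5 subfamilies with at least 2. Cyp2c55 to Cyp2c29 was 0.783, 0.782 and 0.754 in controls and 2.27, 2.21 and 2.21 with MMK-1. The level of such a ratio depends on the gene lengths, and those of Cyp2c29, Cyp2j6, Cyp3a11 and Cyp4f14 were over 1.5 times apart from GENCODE, while the change of a ratio between groups does not. Cyp2d26 to Cyp2d22 was 73.1 to 78.2 in controls and 38.3 to 41.3 with MMK-1, and Cyp4f14 to Cyp4f16 was 1.26 to 1.30 and 1.87 to 1.92. Cyp2j6 to Cyp2j9 was 15.2 to 18.3 in controls and 13.8 to 14.9 with MMK-1. In these 4 pairs the groups did not overlap (exact two-sided permutation p = 0.1, the smallest that 3 libraries against 3 allow, 0.125 adjusted over the 5 pairs). Cyp3a11 to Cyp3a25 was 4.07 to 4.13 in controls and 3.86, 3.87 and 5.00 with MMK-1, where the last value is that of MMK-1 replicate 3. The groups overlapped (exact permutation p = 1).

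Most P450 genes of the mouse lie in tandem clusters, and the log2 fold changes of neighbors were set side by side. In the 1180 kb Cyp2c cluster of chromosome 19, all 7 tested genes had values below 0, but they ranged from -2.36 for Cyp2c29 to -0.06 for Cyp2c37. The Cyp2d cluster of chromosome 15 (424 kb) ranged from -1.88 for Cyp2d34 to -0.15 for Cyp2d22, and the Cyp4f cluster of chromosome 17 (495 kb) from -1.56 for Cyp4f13 to -0.50 for Cyp4f40. On chromosome 7, Cyp2b10 (-0.94) and Cyp2s1 (-0.03) start 95.1 kb apart by lowest position. Of the 31 tested genes, 25 shared no window of 150 transcript bases with another Cyp gene, and none shared over 10% of its windows. Reads of Cyp2c65, Cyp2c66, Cyp2c68 and their copies could still have been divided by the authors' counting, for which the treatment of shared reads and of strand is not stated.

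**Figure D4:**
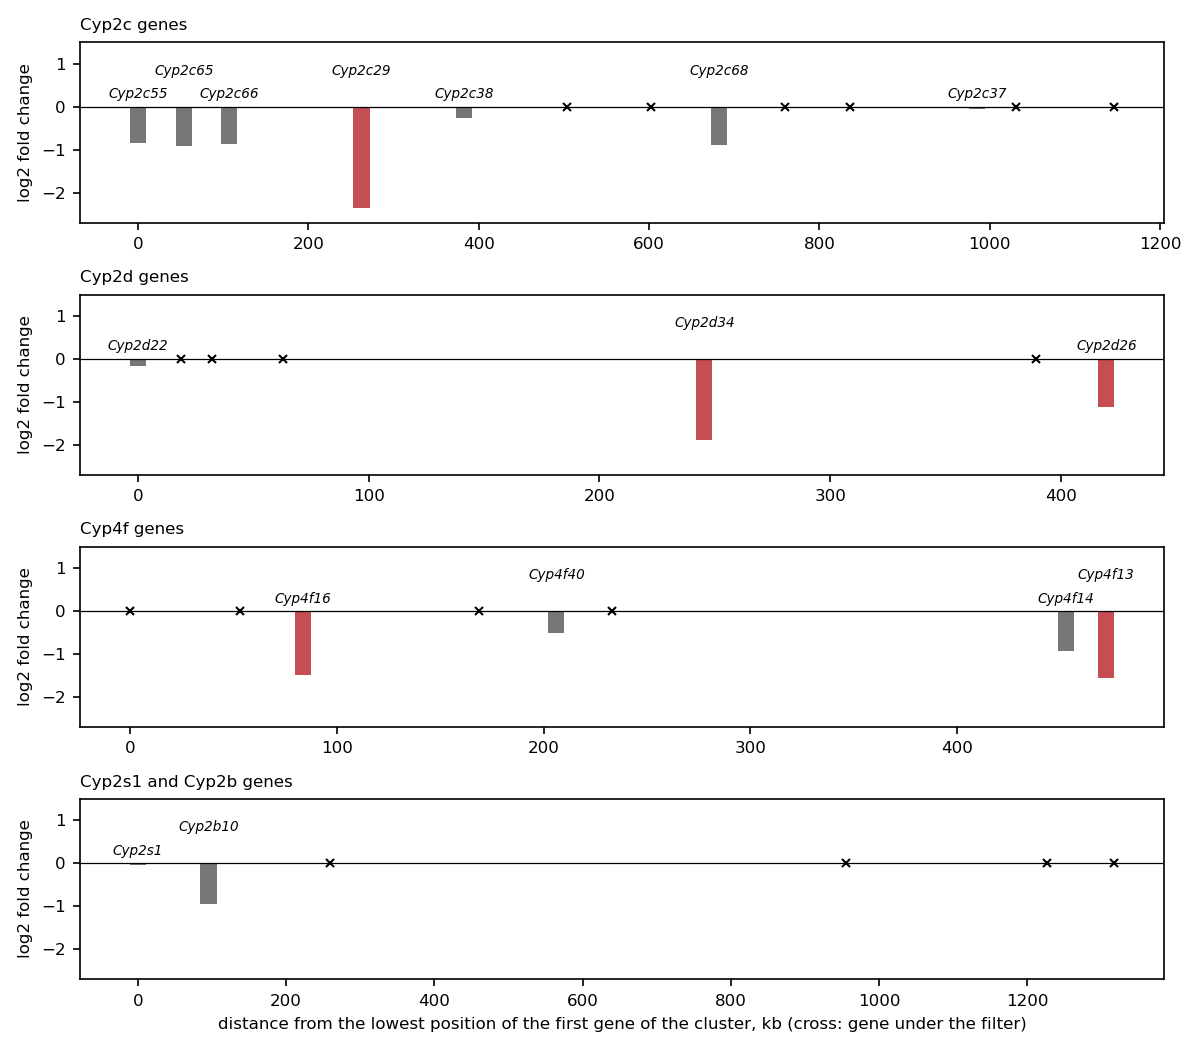
Log2 fold change of FPKM + 1 (bars, red where called lower, grey otherwise) of tested P450 genes against distance in kb from the lowest position of the first gene, in 4 clusters. Crosses at 0 mark genes under the filter, which have no value. Neighboring genes differ, from -2.36 for Cyp2c29 to -0.25 for Cyp2c38 in the first panel.

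The other 45 P450 genes had a mean under 1 FPKM and are described by fragments recovered from the FPKM steps. Of these, 4 had no fragment in any library (Cyp2a12, Cyp2c54, Cyp2j11 and the sterol 12-alpha-hydroxylase Cyp8b1), which allows up to 3 fragments in each, and 14 others had at most 3 fragments in every library. In 12 genes every library of at least 1 group held 10 or more fragments. In 5 of these the libraries of both groups did, in 5 (Cyp2c40, Cyp2e1, Cyp2j5, Cyp2j8 and Cyp2j13) those of the control group alone, and in 2 (Cyp2c69 and Cyp4f15) those of the MMK-1 group alone. The last 7 genes were kept through the group where they are high, so their direction follows from that choice and is given as a description. Cyp3a59 had 154, 173 and 150 fragments with vehicle and 40, 44 and 33 with MMK-1. Cyp2e1, the ethanol-inducible P450 of the liver, had 39, 43 and 39 fragments with vehicle and 11, 15 and 5 with MMK-1. Cyp2j8 had 49, 42 and 44 fragments with vehicle and 2, 9 and 4 with MMK-1. These were lower in every MMK-1 library than in any control, as were Cyp2j5 (242 against 52 fragments over 3 libraries), Cyp2j13 (42 against 7) and Cyp2c40 (37 against 17). Cyp2c69 and Cyp4f15 were higher, with 21 against 81 and 39 against 121 fragments over 3 libraries. The groups of Cyp2c67, Cyp2c70, Cyp2d10 and Cyp4f17 overlapped, with 143 against 123, 99 against 97, 87 against 97 and 266 against 307 fragments. Cyp2c40, Cyp2c69 and Cyp2c67 share 29.1%, 22.5% and 13.0% of their windows with another Cyp gene, so that their division is uncertain. The remaining 15 genes held at most 23 fragments in any library.

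Of the genes that deliver electrons to P450 enzymes, 11 were tested, and 5 were lower and 1 higher by adjusted p (median log2 fold change -0.22). Por, the oxidoreductase that serves microsomal P450 enzymes, had 117, 116 and 112 FPKM with vehicle and 109, 107 and 116 FPKM with MMK-1, and the groups overlapped (-0.06 ± 0.0435 (SE, adjusted p = 0.242)). Cyb5a, the cytochrome b5 that supplies the second electron, had 1089, 1130.2 and 1176 FPKM with vehicle and 432, 407 and 437 FPKM with MMK-1 (-1.41 ± 0.0455 (SE, adjusted p = 3.66e-08)). Cyb5r3, a reductase of cytochrome b5, and Pgrmc1, a heme-binding partner of P450 enzymes, had log2 fold changes of -1.46 and -0.78, and Cyb5r1 was higher by 1.13. Heme synthesis had 11 tested genes, 6 lower and 1 higher (median -0.15), among them Fech (-0.65), Alas1 (-0.61), the rate-limiting enzyme, and Alad (-0.47), with Slc25a39 higher (0.29). Of 6 genes of heme breakdown and export, 3 were lower, Slc48a1 (-0.56), Blvrb (-0.53) and Flvcr1 (-0.46), and the heme oxygenases Hmox1 (0.83) and Hmox2 (0.39) were higher. These counts are 45.5%, 54.5% and 50% lower and 9.09%, 9.09% and 33.3% higher, beside 24.7% lower and 48.5% higher among all genes tested.

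Among 20 tested xenobiotic and sterol receptors, 11 were lower (55%, against 24.7% of all genes) and 4 higher (20%, against 48.5%), with a median of -0.17. Nr1i3, which encodes CAR, had 66.8, 70.9 and 69.6 FPKM with vehicle and 22.6, 23.7 and 24.3 FPKM with MMK-1, a log2 fold change of -1.51 ± 0.0440 (SE, adjusted p = 2.04e-08). Ppara, a fatty acid receptor, and Nr1h4, the bile acid receptor FXR, had log2 fold changes of -0.78 and -0.70. Nr1i2, which encodes the pregnane X receptor, had -0.61. Higher by adjusted p were Rarg (0.60), which reached the filter through the MMK-1 group, Tiparp (0.32) and Arnt2 (0.26), and Ahr, the aryl hydrocarbon receptor, with 0.20 ± 0.0670 (SE, adjusted p = 0.0218). Of 17 hepatic and enterocyte factors of P450 genes, 3 were lower (17.6%) and 8 higher (47.1%), near the 24.7% and 48.5% of all genes, with a median of 0.10 against 0.13. Hnf4a had overlapping groups and a log2 fold change of 0.07 ± 0.0435 (SE, adjusted p = 0.188), which was -0.01 after upper-quartile scaling. Foxa2 reached the filter through the MMK-1 group and Hlf through the control group, so that their directions are tied to how they were kept. Foxa3 (1.27), Foxa2 (1.01) and Nfil3 (0.87), a repressor at clock-controlled sites, were higher, and Dbp (-0.67), Hlf (-0.57) and Tef (-0.13), the activators at the same sites, were lower.

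Other enzymes of phase I metabolism, oxidative enzymes and epoxide hydrolases, were mostly lower as well. Of 10 tested genes, 9 were lower by adjusted p, 7 of them called, and 1 was higher (median -1.14). Among all genes 24.7% were lower by adjusted p, 3.65% were called lower and 48.5% were higher. Ephx2, the soluble epoxide hydrolase that acts on the epoxides made by Cyp2c and Cyp2j enzymes, had 112, 112 and 112 FPKM with vehicle and 24.8, 25.5 and 27.8 FPKM with MMK-1 (-2.06 ± 0.0475 (SE, adjusted p = 6.08e-09)). Fmo5 and Maob had log2 fold changes of -1.62 and -1.39, and Fmo1, another flavin monooxygenase, was higher by 0.61, a gene that reached the filter through the MMK-1 group (0.613 against 1.47 FPKM), so that its direction is tied to how it was kept.

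Enterocyte markers moved in the direction of most P450 genes, and stem cell, Paneth and enteroendocrine markers mostly in the other. Goblet cell markers were mixed. Counts by adjusted p stand beside 24.7% lower and 48.5% higher among all genes. Of 24 tested enterocyte markers, 22 were lower by adjusted p and 1 higher, with a median log2 fold change of -1.40, and their summed level was 16424 to 16591 FPKM with vehicle and 11022 to 11821 FPKM with MMK-1. Their log2 fold changes ranged from -3.44 for the peptide transporter Slc15a1 to 0.17 for Fabp1. Fabp6, counted as lower, reached the filter through the control group (4.96 against 0.915 FPKM), so that its direction is tied to how it was kept. Ada, an enterocyte marker under the filter, had 0.281 FPKM with vehicle and 1.09 FPKM with MMK-1 by mean, without overlap. All 12 tested stem cell markers were higher (median 1.15), with a summed level of 107 to 109 FPKM with vehicle and 463 to 491 FPKM with MMK-1. All 8 tested Paneth cell markers were higher (median 1.62), with a summed level of 450.04 to 496 FPKM with vehicle and 1425 to 1558 FPKM with MMK-1. Goblet cell markers had a median of 0.25 (8 tested, 2 lower and 6 higher), with 1838 to 1984 FPKM with vehicle and 1980.4 to 2161 FPKM with MMK-1. The 2 lower goblet cell markers were Zg16 (-1.63) and Muc2 (-0.35). Enteroendocrine markers had a median of 0.43 (11 tested, 0 lower and 8 higher, 72.7%), with 397 to 413 FPKM and 531 to 549.6 FPKM. No tuft cell marker reached the filter, and of the hepatocyte markers Alb was at 0.017 FPKM with vehicle and 0.116 FPKM with MMK-1 by mean, while Ttr was the only 1 tested (-0.80). The immune markers had a summed level of 5.53 to 6.28 FPKM with vehicle and 1.90 to 2.95 FPKM with MMK-1. Most of it was Cd68 (3.17 against 1.15 FPKM by mean) and Itgam (2.36 against 0.938 FPKM), which reached the filter through the control group. The defining markers Ptprc, Cd3e and Adgre1 were under 0.1 FPKM in all libraries. The part of cell composition in the P450 values was not tested.

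**Figure D5:**
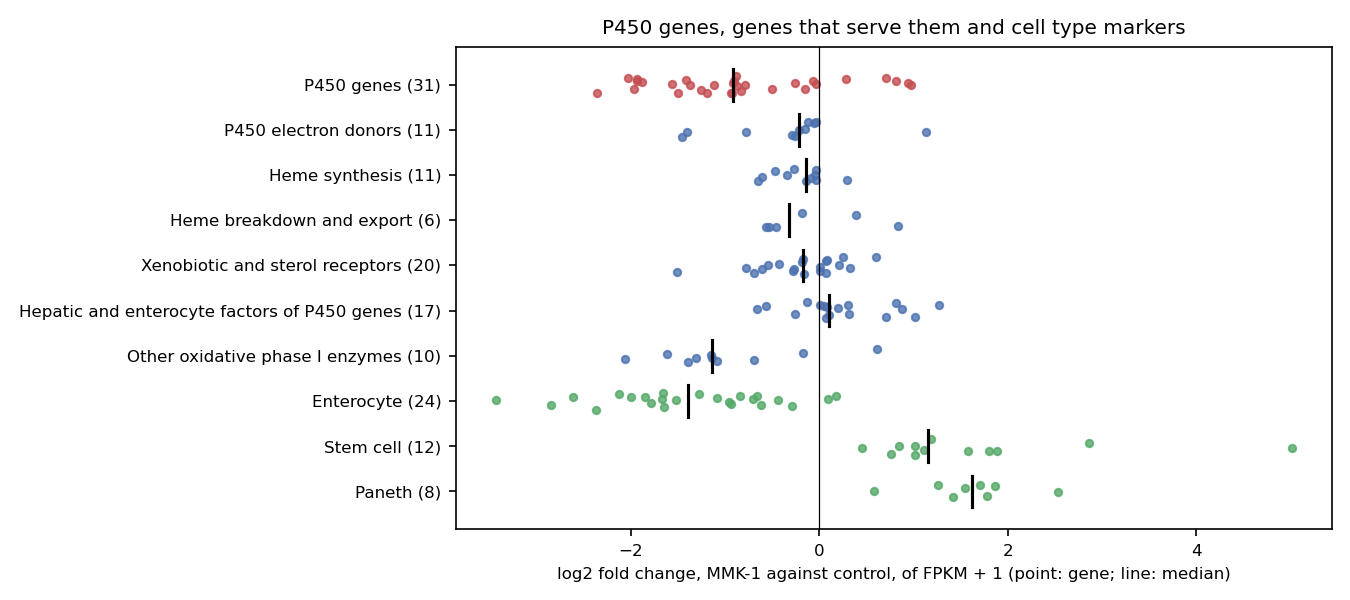
Log2 fold change of FPKM + 1, MMK-1 against control, of each tested gene (points) of the P450 genes (31), of 6 lists of genes that serve or accompany them and of 3 marker lists, with the median of each list as a line. The medians are -0.91 for the P450 genes, -0.22 for electron donors, -1.14 for other phase I enzymes, -1.40 for enterocyte markers and 1.15 for stem cell markers.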

How the data were processed

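RNA-seq of 6 libraries (150-base paired reads per the study's methods) was analysed from 1 deposited table. The authors deposited FPKM values, fragments per kilobase of gene and per total of the library, with no further scaling between libraries stated. The submitters' processing notes name HISAT2, HTSeq, R 3.2.0, DESeq2 and mm10 without roles. Values were whole multiples of 1 fragment within 0.1 for 100% of values, and fragments and library totals were computed from this property, low genes up to a shared factor. Intervals and floors cover counting error only, and 0 fragments allow a true level of up to 3.

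Groups came from the sample labels. The test was limma 3.58.1 (limma-trend, R 4.3.3) on log2(FPKM + 1) over genes with a mean of at least 1 FPKM, with a call at a 2-fold change and an unadjusted p threshold of 0.05 and, separately, an adjusted p threshold of 0.05. Alternatives covered scaling, filter, pseudocount, limma-voom on fragments (10 or more in at least 3 libraries), a replicate block, a fold change of 1.5 and leaving out each library, and median-ratio scaling and counts over genes of at least 1 FPKM in each group were added after seeing the data. The limma-trend fit and the recovery of fragments were tested on simulated data. The members and lists were chosen with earlier results of these data known. Every tested P450 gene was named, with values per library for called genes and the 10 most abundant. Genes under the filter were named when every library of a group held 10 fragments. List genes were limited to the 3 largest changes per direction and the gene a list is named for. Per-library values were also given for a few other genes that passed and for those whose groups overlapped, such as Cyp2s1, and Nr1i2 and Ahr were named, all chosen after their values were seen. Coordinates are from GENCODE vM21 (GRCm38), promoters from RefSeq (63 of 76 genes matched). Python 3.11.15 was used with numpy 2.4.6, pandas 2.3.3, scipy 1.17.1 and matplotlib 3.10.9. Permutation tests were exact and two-sided.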

Additional observations from a re-analysis of the deposited data

How the results depend on the processing

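The count of P450 genes called lower was 13 of 31 and moved to 21 with a fold change threshold of 1.5 (67.7%, against 8.1% of all genes) and to 21 of 44 tested with limma-voom on fragments (47.7%, against 6.99%). It was 15 after upper-quartile scaling (all genes 4.09%), 15 with a pseudocount of 0.1 (4.61%), 19 after median-ratio scaling (4.58%), 13 of 72 without the filter (1.91%), and 13 to 13 with each library left out. The count called higher was 0 and moved to 3 with a pseudocount of 0.1 (9.68%, against 6.41% of all genes), to 5 with limma-voom (11.4%, against 10.5%) and to 4 with a fold change threshold of 1.5 (12.9%, against 14.2%), where the latter pair is near the shares of all genes. Of the limma-voom calls, 5 lower and 2 higher were of genes that reached 10 fragments in every library of 1 group alone, which ties their direction to the filter, and 16 and 3 calls were left without them. The number called higher was 0 to 1 with each library left out, where the 1 gene was Cyp39a1, without control replicate 3 (1.06) or without MMK-1 replicate 1 (1.02). Among single genes, the log2 fold change of Cyp2c37 was -0.06, lay between -0.11 and 0.0041 with each library left out, and was above 0 without MMK-1 replicate 2. The numbers of the replicates did not pair the samples, with correlations of deviations of 0.0253, -0.0400 and 0.0279 between libraries of the same number. With the replicate block, 13 genes were called lower and 0 higher (all genes 3.65% and 3.4%), and 23 rather than 24 were lower by adjusted p (all genes 24.1%), where Cyp2d22 did not pass (adjusted p = 0.0630). By limma-voom, 940 of all genes were called lower and 1415 higher. Depth limits the genes with a few fragments. The cause of the moves was not tested.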

Other observations

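Of 5 P450 genes outside the symbol pattern, 1 was tested. Cyp51, the lanosterol 14-alpha-demethylase of cholesterol synthesis, had 71.05, 69.2 and 71.02 FPKM with vehicle and 104, 105 and 105 FPKM with MMK-1, a log2 fold change of 0.56 ± 0.0355 (SE, adjusted p = 1.62e-06) by limma. Tbxas1, Ptgis, Cyp3a41a and Cyp3a41b were under 0.1 FPKM in all libraries.

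Among the members under the filter, Cyp26b1, which clears retinoic acid, had 2, 0 and 1 fragments with vehicle and 9, 13 and 9 with MMK-1, and was singled out after its values were seen. The other 2 retinoic acid hydroxylases, Cyp26a1 and Cyp26c1, held at most 3 fragments in every library.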
